A study of Arabidopsis thaliana with 12 samples.

Results

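The genes described here act in cell elongation: the alpha-expansins EXPA1 (AT1G69530), EXPA4 (AT2G39700), EXPA5 (AT3G29030), EXPA8 (AT2G40610), EXPA10 (AT1G26770) and EXPA11 (AT1G20190), and the LONGIFOLIA genes LNG1 (AT5G15580) and LNG2 (AT3G02170). They were picked by locus identifier, and all 8 were found among the 27655 genes of the deposited table and passed the filter on low values. Whole 7-day-old Arabidopsis thaliana seedlings of the wild type Columbia (Col) and of the mutant fve-4 had grown at 21 °C in short days (8 h light, 16 h dark). A part of them went to 27 °C at ZT1, early in the day, and the rest remained at 21 °C. Harvest of all seedlings was at ZT13, which is 12 h after the shift and 5 h into the dark. Each of the 4 groups (Col at 21 °C, Col at 27 °C, fve-4 at 21 °C, fve-4 at 27 °C) held 3 libraries, and the labels name no other allele, transgene or agent in any group. FVE, the mutated gene, encodes a WD40 protein found in histone deacetylase complexes, and it was at 39.3 to 52.7 TPM (transcripts per 1000000) in the 6 Col libraries and at 4.89 to 7 TPM in the 6 fve-4 libraries. The reads recovered behind the values numbered from 11465313 to 14566380 per library, and each member had between 227 and 2261 of them in a library.

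Expansins are small proteins of the plant cell wall that loosen the contacts between cellulose and matrix polysaccharides without cutting them, and they act best in an acidified wall. A wall loosened this way yields to turgor, so the cell lengthens, and seedlings grown in mild warmth are known for long hypocotyls and petioles. LNG1 and LNG2 encode plant-specific proteins that promote lengthwise, polar elongation of leaf cells in Arabidopsis. They belong to the TRM family, whose members carry a motif that recruits TON1 and thereby bear on the order of cortical microtubules, which guide cellulose deposition.

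The stretches of 250 bases before the annotated start of the genes were read from the TAIR10.1 genome with the RefSeq annotation of that build, and matches to short motifs are shown in capitals. The deposited table itself carries no coordinates. The motifs searched on both strands were the G-box (CACGTG) and the PBE-box (CATGTG), both known as binding motifs of PIF factors, the AuxRE (TGTCTC) of auxin response factors, and the BRRE (CGTGTG or CGTGCG) of BZR1 and its relatives. The first 3 sequences belong to the members that rose in warmth in both genotypes. The stretch of LNG1 lies at chr5:5072493-5072742, that of LNG2 at chr3:399961-400210 and that of EXPA8 at chr2:16950706-16950955, each on the minus strand and printed 5′ to 3′ as transcribed.
LNG1: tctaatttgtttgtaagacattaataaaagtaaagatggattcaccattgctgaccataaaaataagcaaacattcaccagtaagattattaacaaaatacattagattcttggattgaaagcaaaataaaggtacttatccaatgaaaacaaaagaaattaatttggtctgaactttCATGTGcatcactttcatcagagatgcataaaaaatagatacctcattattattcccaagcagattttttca
LNG2: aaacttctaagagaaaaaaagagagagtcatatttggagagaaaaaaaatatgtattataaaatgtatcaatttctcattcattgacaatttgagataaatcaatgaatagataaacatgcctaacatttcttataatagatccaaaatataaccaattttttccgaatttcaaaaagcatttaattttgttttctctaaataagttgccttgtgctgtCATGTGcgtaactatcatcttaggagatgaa
EXPA8: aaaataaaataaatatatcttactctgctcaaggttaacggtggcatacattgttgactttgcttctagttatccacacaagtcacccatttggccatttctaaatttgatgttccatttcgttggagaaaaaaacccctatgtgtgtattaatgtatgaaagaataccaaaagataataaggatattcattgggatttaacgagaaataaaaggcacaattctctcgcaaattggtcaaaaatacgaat
The next pair are the upstream stretches of EXPA10 (chr1:9259182-9259431, plus strand), which fell in warmth in both genotypes, and of EXPA1 (chr1:26141476-26141725, plus strand), shown because both hold the run CACATGTG.
EXPA10: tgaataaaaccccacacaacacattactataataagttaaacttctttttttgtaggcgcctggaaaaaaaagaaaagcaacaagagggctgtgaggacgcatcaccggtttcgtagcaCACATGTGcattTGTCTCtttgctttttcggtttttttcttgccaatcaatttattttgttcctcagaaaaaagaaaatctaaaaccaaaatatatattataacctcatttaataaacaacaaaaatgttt
EXPA1: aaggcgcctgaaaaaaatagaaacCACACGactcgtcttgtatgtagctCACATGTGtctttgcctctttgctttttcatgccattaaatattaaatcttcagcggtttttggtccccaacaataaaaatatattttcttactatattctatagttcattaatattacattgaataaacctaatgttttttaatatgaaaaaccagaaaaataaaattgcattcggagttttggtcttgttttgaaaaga
A PBE-box was present in this window in 5 members (EXPA1, EXPA10, EXPA11, LNG1 and LNG2), against 11.1% of 27444 genes with a window of the same length. It began 72 bases before the start in LNG1 and 31 bases before it in LNG2. In EXPA1 and EXPA10 the capitals CACATGTG hold 2 overlapping matches, 1 on each strand. The members with a PBE-box thus included genes that rose and genes that fell in warmth. The AuxRE was found in EXPA5 and EXPA10, against 10.9% of genes, and the BRRE (in capitals as CACACG) in EXPA1, against 6.71%. No member held a G-box within 250 bases, a motif present in 6.49% of genes, or within 1000 bases, where 14.8% of genes held one. None of the motifs was in the 250 bases of EXPA8 and EXPA4. Within 1000 bases EXPA8 held a pair of PBE-boxes, which 37.7% of genes hold at least once in that window. A match of letters is a description and not a site of binding.

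**Figure D1:**
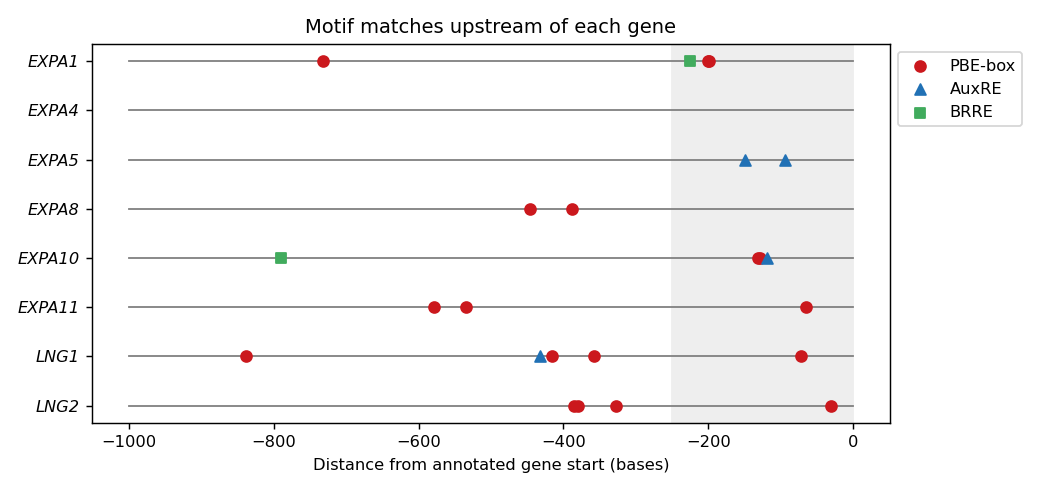
Matches to 3 motifs in the 1000 bases upstream of each of the 8 genes, by distance from the annotated gene start in bases (x axis), with 1 line per gene and the 250-base window shaded. LNG1 and LNG2 each hold a PBE-box within 100 bases of the start, EXPA8 holds its pair outside the shaded window, and EXPA4 holds none of the 3 motifs.

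In warmed Col, EXPA8, LNG1 and LNG2 rose and EXPA1, EXPA4, EXPA10 and EXPA11 fell. The 3 members that rose and the 4 that fell compare with 36.7% and 25.1% of the 19863 genes tested (61.9% in either direction), so a call by itself says little about the members. In warmed fve-4, EXPA4, EXPA8, LNG1 and LNG2 rose and EXPA10 fell, 4 and 1 of 8 against 25.2% and 14.0% of all genes (39.2% in either direction). The change in warmth differed between the genotypes in 6 of 8 members, 3 with a higher and 3 with a lower change in fve-4, against 32.4% of all genes (14.4% and 18.0%). At 21 °C, 5 members were lower and 1 was higher in fve-4 than in Col, against 8.49% and 15.3% of all genes (23.8% in either direction). That background is unsteady: the 1687 genes lower in fve-4 at 21 °C became 1083 without fve-4 at 21 °C replicate 1, and of the genes called there 64.3% were higher, against 47.4% with median-ratio rescaling and 50.2% with quantile normalization. In warmed fve-4 the share of higher among called genes was likewise 64.2%, against 49.6% and 48.7%. At 27 °C it was again 5 lower and 1 higher, against 17.6% and 20.9% (38.5% in either direction). The median change of the 8 members was -0.18 in Col, 0.42 in fve-4, 0.18 for the difference between them, -0.45 between genotypes at 21 °C and -0.36 at 27 °C, all on the log2(TPM + 1) scale. Over all genes tested these medians were 0.08, 0.07, -0.02, 0.05 and 0.02. A call means an adjusted p under 0.05 in limma's moderated test, two-sided and adjusted over all genes tested, and a change (± SE) is a difference of mean log2(TPM + 1). Each contrast shares libraries with others: the difference between genotypes in the warm change uses all 12.

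**Figure D2:**
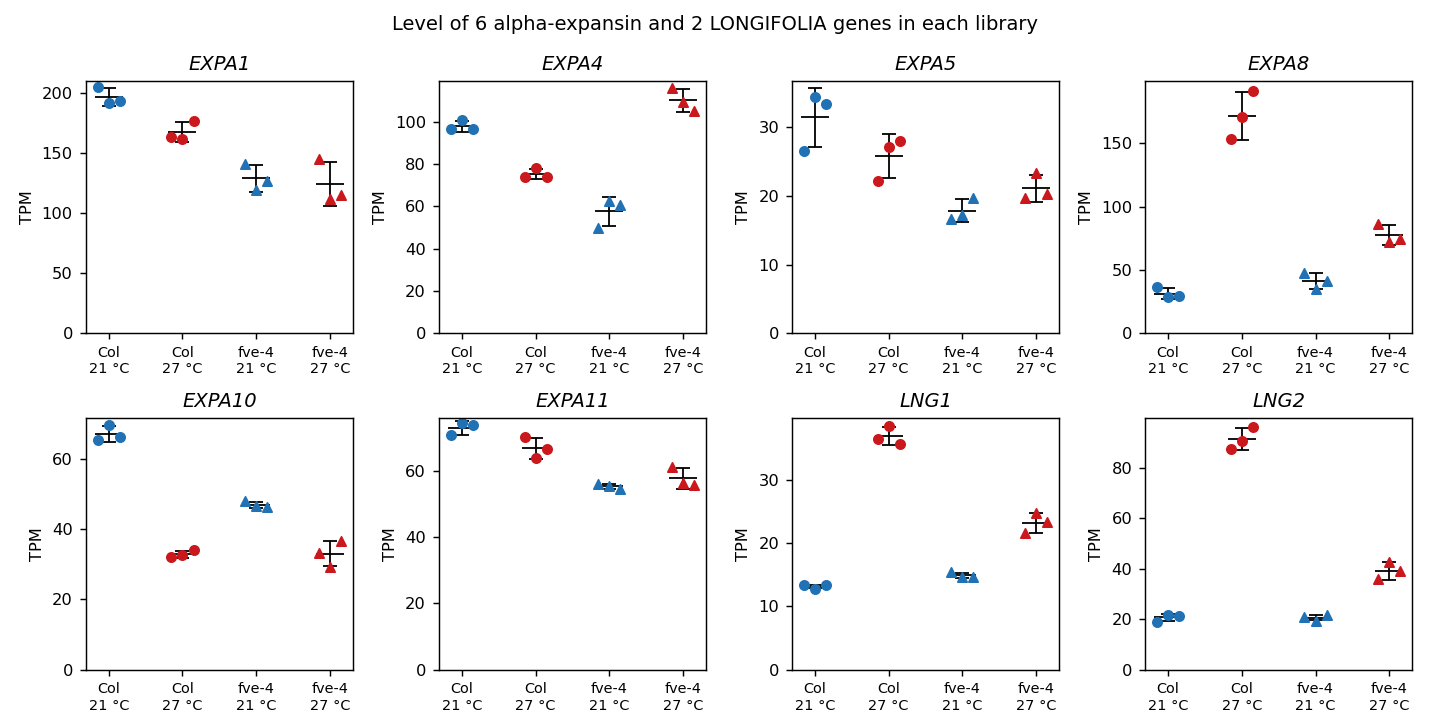
Level of each of the 8 genes in TPM (y axis, from 0, its own range in each panel) in the 12 libraries, with circles for Col, triangles for fve-4, blue for 21 °C and red for 27 °C. Horizontal lines are group means and bars are 1 SD (n = 3). EXPA8, LNG1 and LNG2 share a pattern with the highest points in Col at 27 °C, while the highest points of EXPA4 are in fve-4 at 27 °C.

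The LONGIFOLIA genes rose in every warmed library, more in Col than in fve-4. LNG2 was at 19.1, 21.7 and 21.3 TPM in Col at 21 °C and at 87.3, 90.5 and 96 TPM in Col at 27 °C. In fve-4 it was at 21, 19.4 and 21.6 TPM at 21 °C and at 35.8, 42.6 and 39 TPM at 27 °C. The 21 °C libraries of both genotypes overlapped, and the warmed libraries formed 2 separate bands, the fve-4 band lying between the 21 °C libraries and warmed Col. The rise was 2.09 ± 0.07 in Col (limma, adjusted p = 1.95e-10) and 0.89 ± 0.07 in fve-4 (adjusted p = 9.54e-07). The difference of -1.20 ± 0.11 passed the test (limma, adjusted p = 7.58e-06). In TPM, LNG2 gained 70.6 in Col and 18.5 in fve-4, which is 26.2% of the gain in Col. Between genotypes LNG2 did not differ at 21 °C beyond the spread (0.00 ± 0.07, limma adjusted p = 0.989), and at 27 °C fve-4 was lower by 1.20 ± 0.07 on the log2 scale, a ratio of Col to fve-4 means of 2.33 (adjusted p = 2.92e-07).

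LNG1 moved in the same order at a lower level. It was at 13.3, 12.8 and 13.3 TPM in Col at 21 °C and at 36.5, 38.5 and 35.7 TPM in Col at 27 °C. In fve-4 the values were 15.4, 14.7 and 14.6 TPM at 21 °C and 21.6, 24.7 and 23.3 TPM at 27 °C. No warmed library of LNG1 reached down to a 21 °C library of its genotype, and no warmed fve-4 library reached up to warmed Col. The rise was 1.42 ± 0.07 in Col (limma, adjusted p = 1.25e-09) and 0.61 ± 0.07 in fve-4 (adjusted p = 1.02e-05), and these changes differed by -0.81 ± 0.09 (adjusted p = 4.5e-05). The gain of LNG1 in fve-4, 8.31 TPM, was 35% of the 23.7 TPM gained in Col. At 21 °C the fve-4 libraries all lay above the Col libraries, but the difference of 0.17 ± 0.07 did not pass the test (limma, adjusted p = 0.0855). At 27 °C LNG1 was lower in fve-4 by 0.65 ± 0.07 on the log2 scale (limma, adjusted p = 1.25e-05). The ratio of LNG2 to LNG1 (TPM over TPM) went from 1.43 to 1.7 in Col at 21 °C to 2.35 to 2.69 in Col at 27 °C, and from 1.32 to 1.48 to 1.66 to 1.73 in fve-4. Warmth thus raised LNG2 by a larger factor than LNG1 in each genotype, with no overlap of the ratios within a genotype. That order was the same with exon lengths, which put the 4 ranges at 1.29 to 1.53, 2.11 to 2.42, 1.19 to 1.33 and 1.49 to 1.55. Each LNG gene overlaps a gene on the opposite strand, and the strand setting of the counting is not given in the sources used here. The partner of LNG1 (AT5G15581) was listed at 0 TPM in all libraries and that of LNG2 (AT3G02160) reached 4.32 TPM at most.

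EXPA8 had the largest change in warmth of the 8 members in Col. Its level was 36.2, 28.5 and 29 TPM in Col at 21 °C and 153, 171 and 191 TPM in Col at 27 °C. In fve-4 it was 47.8, 34.9 and 41.2 TPM at 21 °C and 86.3, 71.6 and 74.4 TPM at 27 °C. All 3 warmed Col libraries lay above all 3 warmed fve-4 libraries, and those in turn above every library at 21 °C. The rise was 2.42 ± 0.12 in Col (a ratio of means of 5.49, limma adjusted p = 1.87e-09) and 0.90 ± 0.12 in fve-4 (a ratio of 1.87, adjusted p = 5.9e-05). The difference between these changes was -1.52 ± 0.17 (limma, adjusted p = 3.74e-05). The gain of EXPA8 in fve-4, 36.1 TPM, was 25.8% of the 140.2 TPM gained in Col. At 27 °C the level was lower in fve-4 by 1.14 ± 0.12 on the log2 scale (limma, adjusted p = 1.63e-05). At 21 °C it was higher in fve-4 by 0.39 ± 0.12 (limma, adjusted p = 0.0321), although the highest Col library, at 36.2 TPM, lay above the lowest fve-4 library, at 34.9 TPM. That call at 21 °C was lost under 7 of 22 alternatives, with adjusted p up to 0.135. Among them were the fits without Col at 21 °C replicate 2 (adjusted p = 0.113) or replicate 3 (adjusted p = 0.108) and without fve-4 at 21 °C replicate 1 (adjusted p = 0.135) or replicate 3 (adjusted p = 0.0694).

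EXPA10, whose suppression gives small leaves in Arabidopsis, fell in warmth in both genotypes. It was at 65.3, 69.6 and 66 TPM in Col at 21 °C and at 31.9, 32.5 and 34 TPM in Col at 27 °C. In fve-4 it was at 47.9, 46.5 and 46.3 TPM at 21 °C and at 33.1, 29.3 and 36.6 TPM at 27 °C. The genotypes were apart at 21 °C, with every fve-4 library below every Col library, and overlapped at 27 °C. The fall was -1.01 ± 0.07 in Col (limma, adjusted p = 3.01e-08) and -0.50 ± 0.07 in fve-4 (adjusted p = 7.52e-05), and these changes differed by 0.51 ± 0.10 (adjusted p = 0.00156). EXPA10 was lower in fve-4 at 21 °C by 0.50 ± 0.07 on the log2 scale (limma, adjusted p = 0.000255) and not different beyond the spread at 27 °C (0.00 ± 0.07, adjusted p = 0.97). The change in warmth was thus smaller in fve-4 on the log2 scale, from a lower start to a like level.

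EXPA4 moved in opposite directions in the genotypes. It was at 96.6, 101 and 96.4 TPM in Col at 21 °C and fell to 74.1, 78 and 73.8 TPM in Col at 27 °C. In fve-4 it was at 49.8, 62.7 and 60.6 TPM at 21 °C and rose to 116, 109.6 and 105 TPM at 27 °C. The 4 groups did not overlap: the fve-4 libraries were the lowest of all at 21 °C and the highest of all at 27 °C. The change was -0.38 ± 0.07 in Col (limma, adjusted p = 0.000489) and 0.93 ± 0.07 in fve-4 (adjusted p = 5.59e-07), a difference of 1.30 ± 0.10 (adjusted p = 3.48e-06). Compared with Col, fve-4 was lower by 0.76 ± 0.07 at 21 °C (limma, adjusted p = 2.05e-05) and higher by 0.54 ± 0.07 at 27 °C (adjusted p = 9.93e-05), both on the log2 scale. EXPA4 was the member called higher in fve-4 at 27 °C. All 5 of its calls held under every alternative tried.

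EXPA1, EXPA5 and EXPA11 changed little in warmth and were lower in fve-4 at 21 °C. EXPA1, known from guard cells and roots, was at 205, 192 and 193 TPM in Col at 21 °C, 163, 162 and 177 TPM in Col at 27 °C, 141, 119 and 127 TPM in fve-4 at 21 °C and 145, 112 and 115 TPM in fve-4 at 27 °C. Every fve-4 library was below every Col library, and in Col the temperatures did not overlap. EXPA1 was lower in fve-4 by 0.61 ± 0.09 at 21 °C (limma, adjusted p = 0.000358) and by 0.44 ± 0.09 at 27 °C (adjusted p = 0.00167), on the log2 scale. Its fall in warmed Col, -0.23 ± 0.09 (limma, adjusted p = 0.0341), was lost under 8 of 22 alternatives, with adjusted p up to 0.105. Leaving out any one of the 3 Col libraries at 21 °C ended it (adjusted p = 0.105, 0.0544 and 0.0573 for replicates 1 to 3), as did leaving out Col at 27 °C replicate 1 (adjusted p = 0.0859) or 2 (adjusted p = 0.0973). In fve-4 the change was -0.06 ± 0.09 (limma, adjusted p = 0.616), and the difference between genotypes, 0.17 ± 0.12, did not pass either (adjusted p = 0.323).

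EXPA11 had the smallest change of the 8 members in warmed Col. It was at 70.6, 74.4 and 73.7 TPM in Col at 21 °C, 70, 63.8 and 66.4 TPM in Col at 27 °C, 56, 55.3 and 54.6 TPM in fve-4 at 21 °C and 61.2, 56.2 and 55.6 TPM in fve-4 at 27 °C. All 6 fve-4 libraries lay below all 6 Col libraries. The level was lower in fve-4 by 0.39 ± 0.05 at 21 °C (limma, adjusted p = 0.000193) and by 0.21 ± 0.05 at 27 °C (adjusted p = 0.00671), on the log2 scale. In warmed Col EXPA11 fell by 0.13 ± 0.05 on that scale (limma, adjusted p = 0.0476), but 12 of 22 alternatives ended that call, with values up to adjusted p = 0.174. The libraries whose removal ended it included Col at 21 °C replicates 2 (adjusted p = 0.129) and 3 (adjusted p = 0.114), Col at 27 °C replicates 2 (adjusted p = 0.174) and 3 (adjusted p = 0.095), and 5 of the 6 fve-4 libraries (adjusted p from 0.0523 to 0.0587). The change in fve-4, 0.06 ± 0.05, did not pass (limma, adjusted p = 0.403), nor did the difference between the genotypes, 0.18 ± 0.07 (adjusted p = 0.0698). The latter passed without Col at 27 °C replicate 1 (adjusted p = 0.0445).

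EXPA5, an expansin linked to brassinosteroid-driven growth, had the fewest reads of the 6 expansin members. It was at 26.5, 34.5 and 33.4 TPM in Col at 21 °C, 22.2, 27.2 and 28.1 TPM in Col at 27 °C, 16.6, 17.3 and 19.7 TPM in fve-4 at 21 °C and 19.7, 23.4 and 20.3 TPM in fve-4 at 27 °C. In Col the temperatures overlapped through replicate 1 at 21 °C. In fve-4 they did not overlap, though the highest value at 21 °C and the lowest at 27 °C both round to 19.7 TPM. EXPA5 was lower in fve-4 at 21 °C by 0.78 ± 0.11 on the log2 scale (limma, adjusted p = 0.000401), with no overlap. At 27 °C the difference of -0.27 ± 0.11 did not pass (limma, adjusted p = 0.072). Neither did the change in Col, -0.27 ± 0.11 (adjusted p = 0.0504), or that in fve-4, 0.23 ± 0.11 (adjusted p = 0.127). The difference between these changes passed (0.50 ± 0.16, limma adjusted p = 0.0287), but the call was lost without any one of 6 libraries. These were Col at 21 °C replicate 2 (adjusted p = 0.0717) or 3 (adjusted p = 0.0688), Col at 27 °C replicate 1 (adjusted p = 0.0663), fve-4 at 21 °C replicate 1 (adjusted p = 0.0664) or 2 (adjusted p = 0.0596) and fve-4 at 27 °C replicate 2 (adjusted p = 0.0688). EXPA5 in warmed Col was the reverse case: it passed under 10 of 22 alternatives, among them the fits without Col at 21 °C replicate 1 (adjusted p = 0.00923) and without Col at 27 °C replicate 3 (adjusted p = 0.033). At 27 °C the genotypes differed without Col at 21 °C replicate 1 (adjusted p = 0.0447), Col at 27 °C replicate 1 (adjusted p = 0.0243) or fve-4 at 27 °C replicate 2 (adjusted p = 0.0477).

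**Figure D3:**
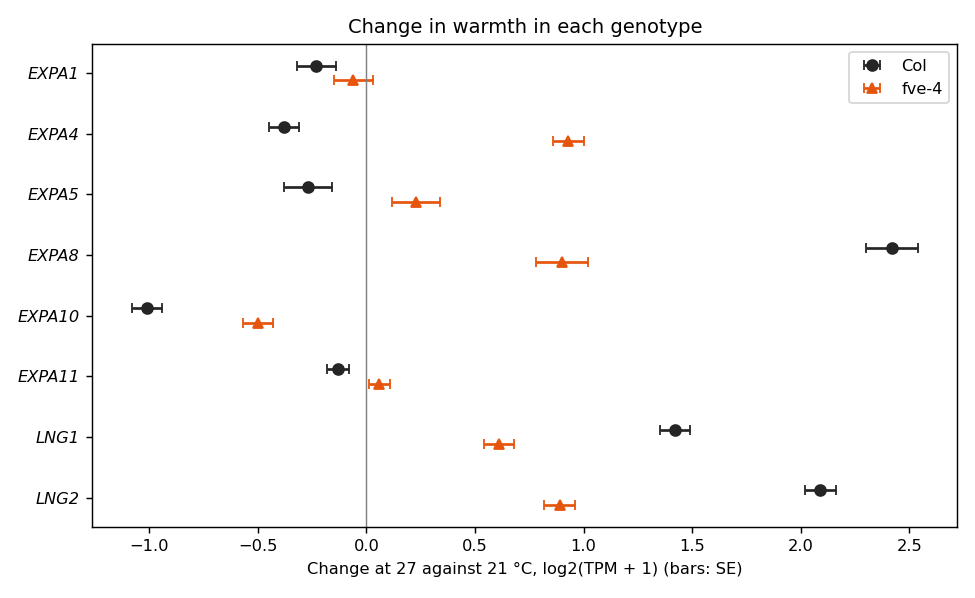
Change at 27 against 21 °C on the log2(TPM + 1) scale (x axis) for each of the 8 genes, with black circles for Col, orange triangles for fve-4 and bars of 1 SE from limma. LNG1, LNG2 and EXPA8 lie to the right of 0 in both genotypes and farther in Col, EXPA10 lies to the left in both, and EXPA4 lies on opposite sides.

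Whole seedlings were sampled, so fewer cells of a type and less RNA per cell cannot be told apart in any of these levels. Of 8 root markers tested, 3 were called lower in warmed Col (25.1% of all genes), and 6 were called higher in fve-4 than in Col at 27 °C (20.9%). In warmed fve-4 and between genotypes at 21 °C 0 were called, against 39.2% and 23.8% of all genes in either direction. The summed level of all 10 markers was 245 to 287 TPM in Col at 21 °C, 53.7 to 103 TPM in Col at 27 °C, 156 to 199.6 TPM in fve-4 at 21 °C and 157 to 236 TPM in fve-4 at 27 °C. IRT1, the iron transporter of the root epidermis, was at 146 to 180.4 TPM in Col at 21 °C, where it was the largest part of that sum, and at 2.33 to 19.7 TPM in Col at 27 °C, where CASP1 (26.1 to 35.1 TPM) stood above it. NRT2.1, a root nitrate transporter, was listed at 0 in all warmed Col libraries and at no more than 0.933 TPM in any other, and the remaining root markers had a group mean above 0 in all 4 groups. The lowest root sum, 53.7 TPM, was in Col at 27 °C replicate 3, the library with the highest EXPA8 and LNG2 levels. Of 9 shoot markers, 3 were higher and 4 lower in warmed Col (36.7% and 25.1% of all genes), and 1 and 3 in warmed fve-4 (25.2% and 14.0%). In fve-4 against Col, 0 of these markers were higher and 3 lower at 21 °C (15.3% and 8.49%), and 2 and 3 at 27 °C (20.9% and 17.6%). Their sum, mostly RBCS1A of the Rubisco small subunit, was 31352 to 33018 TPM in Col at 21 °C, 24004 to 27285 TPM in Col at 27 °C, 30161 to 30518 TPM in fve-4 at 21 °C and 23909 to 24677 TPM in fve-4 at 27 °C, and none of the 9 was at 0 in any group mean. The part of root and shoot proportions in the members' changes was not tested. Without Col at 27 °C replicate 3, the members called in warmed Col were again 3 higher, and no value of EXPA4, EXPA8, EXPA10, LNG1 or LNG2 changed its call.

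The order of the members by level, on the deposited scale per gene length, changed with warmth in Col. In Col at 21 °C EXPA1 stood highest (196 ± 7.05 TPM, SD, n = 3), followed by EXPA4 (97.9 ± 2.46), EXPA11 (72.9 ± 2.01), EXPA10 (66.9 ± 2.3), EXPA5 (31.4 ± 4.34), EXPA8 (31.2 ± 4.3), LNG2 (20.7 ± 1.41) and LNG1 (13.1 ± 0.318). The libraries of EXPA5 and EXPA8 overlapped, and all other neighbours in that order were apart. In Col at 27 °C EXPA8 (171 ± 19.1 TPM) and EXPA1 (167 ± 8.44) overlapped at the top. LNG2 (91.3 ± 4.37), EXPA4 (75.3 ± 2.33), EXPA11 (66.7 ± 3.11), LNG1 (36.9 ± 1.46), EXPA10 (32.8 ± 1.05) and EXPA5 (25.8 ± 3.15) followed, each apart from the next. EXPA8 thus went from the sixth place to the first and LNG2 from the seventh to the third. In fve-4 at 21 °C EXPA1 (129 ± 11 TPM) again stood first, and EXPA8 (41.3 ± 6.46) and LNG2 (20.7 ± 1.15) stood in the fifth and the sixth place. There EXPA8 overlapped EXPA10 above it and LNG2 overlapped EXPA5 below it, and with exon lengths their places were 4 and 7. In fve-4 at 27 °C EXPA1 (124 ± 18.4 TPM) and EXPA4 (110.1 ± 5.39) overlapped at the top, with EXPA8 (77.4 ± 7.82) apart below them and LNG2 (39.2 ± 3.41) in the fifth place, overlapping EXPA10 (33 ± 3.65). The deposited TPM divide by the whole gene span, which is 1.06 times the exons in LNG2 and 1.53 times in EXPA5. With exon lengths in its place, EXPA8 (184 ± 20.7 TPM) stood apart above EXPA1 (145 ± 7.54) in Col at 27 °C, and LNG2 (71.8 ± 3.51) overlapped EXPA4 (71.3 ± 2.12).

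Summed over the 25 alpha-expansin genes of the table, the level stayed near its 21 °C value in warmed Col while its make-up shifted. The sum was 983 to 995 TPM in Col at 21 °C and 978 to 1046 TPM in Col at 27 °C, ranges that overlapped. It was 749.9 to 777 TPM in fve-4 at 21 °C and 816 to 904 TPM in fve-4 at 27 °C, so every fve-4 library lay below every Col library, and the warmed fve-4 libraries lay above those at 21 °C. The share of EXPA8 in the sum went from 2.9% to 3.65% up to 15.6% to 18.2% in Col and from 4.61% to 6.38% up to 8.77% to 9.55% in fve-4. The share of EXPA10 went from 6.58% to 7.08% down to 3.25% to 3.27% in Col, and that of EXPA1 from 19.4% to 20.6% down to 16.2% to 16.9%. EXPA4 held 9.69% to 10.3% and 7.06% to 7.82% in Col, and 6.64% to 8.29% and 12.5% to 13.4% in fve-4. In warmed fve-4 it was EXPA4 more than EXPA8 that took a larger share. With exon lengths EXPA8 held 16.9% to 19.8% in Col at 27 °C and 9.5% to 10.4% in fve-4 at 27 °C. In its longest annotated mRNA, none of the 6 expansin members shared a stretch of 50 bases with the longest mRNA of another gene. Other transcripts were not compared.

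**Figure D4:**
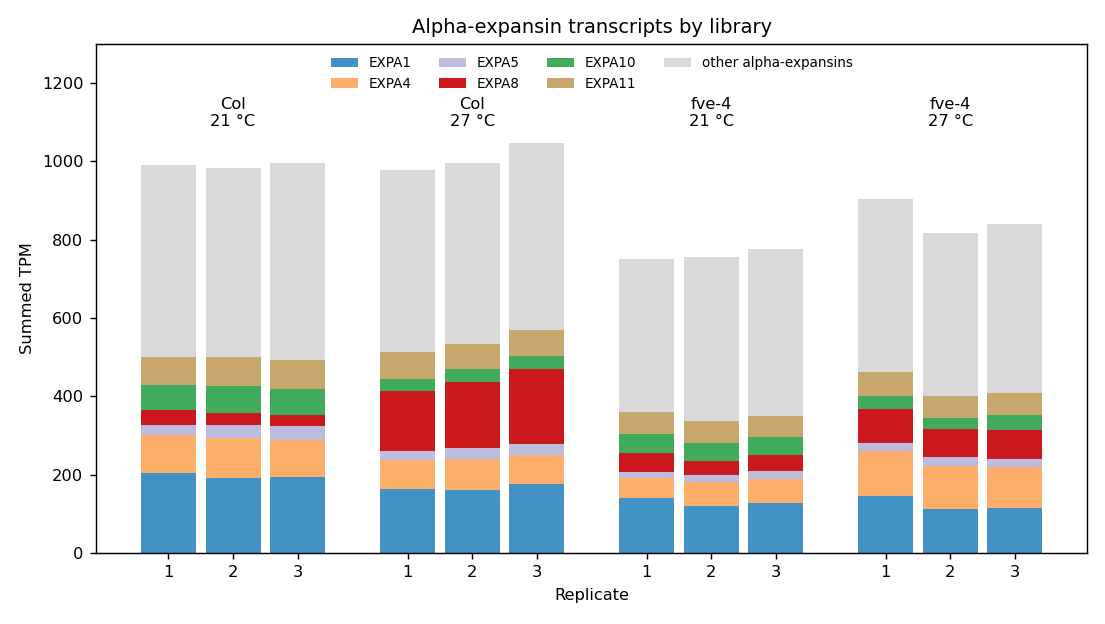
Summed TPM of the 25 alpha-expansin genes in each library (y axis, from 0), with 1 bar per replicate in each group and the 6 described genes in colour over which the other alpha-expansins are stacked in grey. The red part, EXPA8, is tallest in Col at 27 °C, and the bars of fve-4 are shorter than those of Col.

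Of the other alpha-expansins, 12 were tested. Of these 3 rose and 6 fell in warmed Col (36.7% and 25.1% of all genes), and 2 rose and 4 fell in warmed fve-4 (25.2% and 14.0%). The change differed between the genotypes in 7 of them, 3 with a higher and 4 with a lower change in fve-4 (14.4% and 18.0% of all genes). Their median change was -0.36 in Col and -0.05 in fve-4, beside 0.08 and 0.07 over all genes tested. EXPA15 was at 71, 71.3 and 65 TPM in Col at 21 °C and at 18.3, 17.4 and 17.9 TPM in Col at 27 °C, against 38.1, 46.3 and 48.6 TPM and 37.1, 30.7 and 28.7 TPM in fve-4. Like EXPA10 it fell in both genotypes and less in fve-4, by 1.89 ± 0.10 in Col (limma, adjusted p = 2.44e-09) and 0.45 ± 0.10 in fve-4 (adjusted p = 0.00228) on the log2 scale, and these changes differed (1.44 ± 0.14, adjusted p = 1.36e-05). EXPA6 shared part of the pattern of EXPA4: lower in fve-4 at 21 °C (-0.54 ± 0.05, limma adjusted p = 2.36e-05) and raised more by warmth in fve-4 (0.59 ± 0.05) than in Col (0.14 ± 0.05), a difference of 0.45 ± 0.07 (adjusted p = 0.000569). EXPA16 fell in warmed fve-4 (-0.55 ± 0.09, limma adjusted p = 0.0003) and had 0.20 ± 0.09 in Col (adjusted p = 0.0668), a difference of -0.75 ± 0.13 (adjusted p = 0.000661). EXPA2, known from germinating seeds, had at most 4.41 TPM. It rose in Col (0.61 ± 0.17, limma adjusted p = 0.00589) and fell in fve-4 (-0.54 ± 0.17, adjusted p = 0.0205). The fall in fve-4 rests on few reads, with 6, 7 and 8 reads of EXPA2 at 21 °C and 1, 4 and 3 reads at 27 °C. In warmed Col EXPA3 rose by 0.35 ± 0.05 (limma, adjusted p = 1.36e-05) and EXPA9 and EXPA18 fell by 0.67 ± 0.11 (adjusted p = 8.72e-05) and 0.77 ± 0.21 (adjusted p = 0.00588) on the log2 scale. At 21 °C, 5 of the 12 were lower in fve-4 and 2 higher (8.49% and 15.3% of all genes). At 27 °C 3 were lower and 6 higher (17.6% and 20.9%). EXPA17 is counted among those that fell in warmed fve-4, those with a lower change there and those higher in fve-4 at 21 °C. It passed the filter on low values only with the fve-4 libraries at 21 °C (2.65, 4.39 and 1.94 TPM), where it was highest. These calls of EXPA17 were thus bound to follow. EXPA2, which passed only with the Col libraries, is among those lower in fve-4 at both temperatures. EXPA12 and EXPA21 to EXPA26 stayed under the filter, at no more than 1.2 TPM, and EXPA19 was not analysed here. None of the 12 rose in warmed Col by as much as EXPA8.

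Of 6 beta-expansin and expansin-like genes tested, 3 rose and 2 fell in warmed Col (36.7% and 25.1% of all genes). In warmed fve-4, 2 rose and 0 fell (25.2% and 14.0%). Their median change was 0.57 in Col and 0.23 in fve-4. EXLA1, an expansin-like gene, was at 6.44, 7.98 and 6.89 TPM in Col at 21 °C and at 48.6, 45.9 and 44.8 TPM in Col at 27 °C, against 9.09, 8.52 and 10.2 TPM and 41.5, 59 and 57.1 TPM in fve-4. Its rise of 2.55 ± 0.12 in Col and 2.37 ± 0.12 in fve-4 was about as large as that of EXPA8 in Col, but the genotypes' changes did not differ beyond the spread (-0.18 ± 0.17, limma adjusted p = 0.438). EXPB3, a beta-expansin, was at 117, 117 and 115 TPM in Col at 21 °C and fell to 15.6, 14.4 and 13.6 TPM in Col at 27 °C. In fve-4 it was at 37.6, 54.1 and 59.7 TPM at 21 °C and 49.3, 40.3 and 38.4 TPM at 27 °C, which overlapped. The fall of EXPB3 was -2.92 ± 0.13 in Col (limma, adjusted p = 1.11e-09), and the change in fve-4 was -0.22 ± 0.13 (adjusted p = 0.217), a difference of 2.70 ± 0.19 (adjusted p = 1.5e-06). Among the expansins and expansin-like genes tested, EXPB3 had the largest change in warmed Col.

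**Figure D5:**
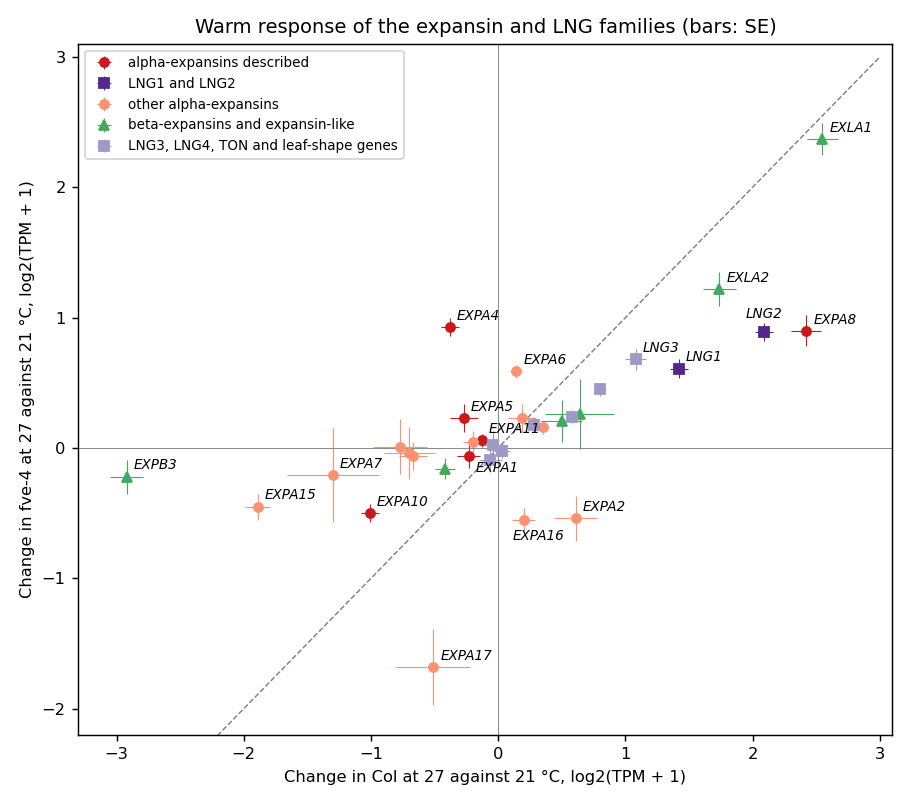
Change in warmth in Col (x axis) and in fve-4 (y axis) on the log2(TPM + 1) scale for the tested genes of the expansin and LNG families, the TON genes, AN and ROT3. Bars are 1 SE, and the dashed line marks equal change. EXPA8, LNG1, LNG2 and LNG3 lie below the line on the right, EXLA1 lies near it, EXPA4 lies at the upper left, and EXPB3 lies far to the left near 0 in fve-4.

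A further list held the LNG relatives LNG3 and LNG4, the TON genes, and the leaf-shape genes AN and ROT3. Of these, LNG3, LNG4, TON2 and AN rose in warmth in each genotype, by less than LNG2. TON1A, TON1B and ROT3 passed the test for warmth in neither. Of these 7 genes, 4 thus rose and 0 fell in each genotype (36.7% and 25.1% of all genes in Col, 25.2% and 14.0% in fve-4). Of the 7, 3 rose less in fve-4, where 18.0% of all genes had a lower change. At 27 °C 5 were lower in fve-4 than in Col (17.6% of all genes), against 1 at 21 °C (8.49%). Their median change was 0.28 in Col and 0.18 in fve-4. LNG3 was at 26.6, 29.5 and 29.9 TPM in Col at 21 °C, 59.3, 60.6 and 65.4 TPM in Col at 27 °C, 30.6, 29.4 and 29.4 TPM in fve-4 at 21 °C and 43, 53.7 and 48.9 TPM in fve-4 at 27 °C. It rose by 1.08 ± 0.08 in Col (limma, adjusted p = 4.21e-08) and by 0.68 ± 0.08 in fve-4 (adjusted p = 1.28e-05), a difference of -0.40 ± 0.11 (adjusted p = 0.0127). LNG4 rose by 0.28 ± 0.06 in Col (limma, adjusted p = 0.00167) and 0.18 ± 0.06 in fve-4 (adjusted p = 0.0409), and its changes did not differ beyond the spread (adjusted p = 0.413). TON2, a regulatory subunit of protein phosphatase 2A in the same complex as TON1, rose by 0.58 ± 0.05 in Col (limma, adjusted p = 2.04e-07) and 0.24 ± 0.05 in fve-4 (adjusted p = 0.00134). AN (ANGUSTIFOLIA), which shapes leaf width, rose by 0.80 ± 0.05 in Col (limma, adjusted p = 5.81e-09) and 0.45 ± 0.05 in fve-4 (adjusted p = 4.75e-06). TON1B was lower in fve-4 at 21 °C (-0.44 ± 0.09, limma adjusted p = 0.00475) and at 27 °C (-0.48 ± 0.09, adjusted p = 0.00162), with no call in warmth.

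Several genes that set wall acidity, on which expansin activity depends, changed in warmed Col. Of 7 plasma membrane proton pumps and PP2C.D phosphatases, which hold those pumps back, 5 rose and 1 fell in warmed Col (36.7% and 25.1% of all genes). In warmed fve-4 3 of them rose (25.2%), and 5 had a lower change in fve-4 (18.0%). The median change was 0.48 in Col and 0.00 in fve-4. It pools pumps with the phosphatases that hold them back, so it gives no net direction for wall acidity. PP2C.D1 rose by 2.38 ± 0.12 in Col (limma, adjusted p = 2.33e-09) and by 1.39 ± 0.12 in fve-4 (adjusted p = 1.34e-06). The pump AHA3 rose by 0.48 ± 0.04 in Col (limma, adjusted p = 5.14e-07) and had -0.09 ± 0.04 in fve-4 (adjusted p = 0.136). AHA1 also rose in Col (0.21 ± 0.04, limma adjusted p = 0.00073), as did PP2C.D2 and PP2C.D6, while AHA2 fell (-0.16 ± 0.06, adjusted p = 0.0245). PP2C.D5 passed in neither genotype (0.08 ± 0.08 in Col, limma adjusted p = 0.406, and -0.05 ± 0.08 in fve-4, adjusted p = 0.648), and none of the 3 pumps passed in warmed fve-4. Of 10 transcription regulators of elongation, PRE5 passed the filter on low values through Col at 27 °C alone, so its calls in warmed Col, at 27 °C and between the changes were bound to follow and are left out of the counts, a choice made after seeing the data. Of the 9 others, 7 rose in warmed Col (36.7% of all genes), and 5 rose and 1 fell in warmed fve-4 (25.2% and 14.0%). A lower change in fve-4 was called in 8 of them (18.0%). The median change of these 9 was 0.77 in Col and 0.28 in fve-4. They included PIF4, the central growth factor of warmth (2.50 ± 0.16 in fve-4 against 3.89 ± 0.16 in Col, a difference of -1.39 ± 0.23, limma adjusted p = 0.000505), and BZR1 of brassinosteroid signalling (0.28 ± 0.08 against 0.99 ± 0.08, a difference of -0.71 ± 0.11, adjusted p = 0.000455). IBH1, which restrains elongation, was also among those that rose in Col (0.65 ± 0.10, limma adjusted p = 8.31e-05). Of 7 further wall growth genes (4 XTH and 3 CESA), all 7 rose in each genotype (36.7% of all genes in Col, 25.2% in fve-4). Their median change was 1.25 in Col, and of these 7 only XTH24 rose less in fve-4 (-1.06 ± 0.27, limma adjusted p = 0.00909). At 27 °C, 5 of the 7 acidity genes, 7 of the 9 regulators and 4 of the 7 wall genes were lower in fve-4 than in Col. None of them was higher, where 17.6% of all genes were lower and 20.9% higher.

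The members' patterns over the 12 libraries were described by Pearson's r of log2(TPM + 1). These 12 points are 4 groups of 3 and share their libraries, so r mostly reflects the group means. LNG1 and LNG2 had an r of 0.99, and EXPA8 had 0.98 with LNG1 and 0.97 with LNG2. EXPA10 ran against them (-0.86 with LNG1, -0.84 with EXPA8). EXPA1 and EXPA11 had 0.93, EXPA5 and EXPA11 0.84 and EXPA1 and EXPA5 0.75, while EXPA4 had no r above 0.48 with another member. Among 7265 candidate genes with a symbol and a mean of at least 5 TPM, the 3 most like LNG2 were IAA7, an auxin-response repressor (0.997), ABCB19, an auxin transporter (0.995), and GAI, a DELLA repressor (0.99). Those most like LNG1 were LCBK1, the brassinosteroid enzyme gene CPD and the photoreceptor gene PHYA, each at 0.99. The genes most like EXPA8 were CDL1 (0.99), CIPK12 (0.99) and TOM1 (0.98), and those most like EXPA10 were CP33, EMB269 and FIB (each 0.98). For EXPA4 they were the myrosinase gene TGG2 (0.96), PRP2 (0.95) and the amino acid permease gene AAP4 (0.95). EXPA1 was most like EXPA11, PnsL4 (0.93) and ADC2 (0.92), EXPA5 was most like ACA1 (0.96), GAE6 (0.93) and HTA4 (0.92), and EXPA11 was most like PnsL4 (0.95), FVE itself (0.94) and GAE6 (0.93).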

How the data were processed

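Messenger RNA of 12 seedling libraries was measured. The authors deposited 1 table of TPM; its column names speak of counts, but each column sums to 1000000. The tools fastp 0.20.1, HISAT2 2.1.10 and DESeq2 1.26.0 and the build TAIR10 stand in the submitters' processing notes, without their roles; counter and strand are not given in the sources used here. TPM times gene span gave whole reads (tolerance 0.01) for 99.98% of genes above 0 with a span in the RefSeq annotation of TAIR10.1, and lengths found from the values gave the rest, so the authors' TPM divide by gene span. Symbols, spans and upstream sequences came from that annotation and genome.

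limma 3.58.1 (R 4.3.3) was fitted to log2(TPM + 1) with a trended variance prior and the means of 4 groups over 12 libraries (8 residual degrees of freedom) on the 19863 genes with at least 1 TPM in at least 3 libraries. There were 5 contrasts, each with Benjamini-Hochberg adjustment over all genes tested. Each adjusted p is limma's; limma-voom on the recovered reads was an alternative. The step was tested on simulated data. The 8 members, the 8 lists of other genes and their tests were chosen with earlier results of these data known. From each list up to 4 called genes per contrast were eligible to be named, smallest adjusted p first, and for each member the 3 genes with the highest r; the text names some of these, and, outside that rule, CASP1, IBH1, PP2C.D5, PRE5, ROT3 and TON1A. Replicate origin is not given, so p-values measure the spread between these libraries, which may be technical. Alternatives changed the pseudocount, filter, scaling, variance prior, replicate block, libraries fitted and each library in turn. Mannitol samples are not analysed here. Python 3.11.15, numpy 2.4.6, pandas 2.3.3 and matplotlib 3.10.9 made tables and figures.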

Additional observations from a re-analysis of the deposited data

Results flagged for a closer look

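The change in warmth differed between fve-4 and Col, by limma's interaction test with adjusted p under 0.05, in 6 members. On the log2(TPM + 1) scale, change in fve-4 minus change in Col, the difference was 1.30 for EXPA4, 0.51 for EXPA10, 0.50 for EXPA5, -0.81 for LNG1, -1.20 for LNG2 and -1.52 for EXPA8. Among the other expansins named it was 2.70 for EXPB3, 1.44 for EXPA15, 0.61 for EXPA9 and 0.45 for EXPA6. On the lower side it was -0.19 for EXPA3, -0.75 for EXPA16 and -1.15 for EXPA2. In the list of LNG relatives, TON genes and leaf-shape genes it was -0.40 for LNG3, -0.35 for AN and -0.34 for TON2. Among the genes of wall acidity it was -0.57 for AHA3, -0.21 for AHA1, -0.99 for PP2C.D1, -0.52 for PP2C.D6 and -0.40 for PP2C.D2. Among the regulators named it was -1.39 for PIF4, -0.85 for PRE6, -0.71 for BZR1, -0.56 for IBH1 and -0.45 for HBI1. Of the wall genes XTH24 had -1.06.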

How the results depend on the processing

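Of 40 results (8 members in 5 contrasts), 28 kept their direction and their side of the threshold under all 22 alternatives (21 for the interaction) and 12 did not. Under the constant variance prior 2 members were lower in warmed Col in place of 4, and without 1 library 2 to 4; pseudocount 2, the 5 TPM filter, median-ratio rescaling and limma-voom gave 5. The 1 member higher in fve-4 at 21 °C became 0 under median-ratio rescaling, quantile normalization and the constant variance prior, and 0 to 1 without 1 library. The sign turned in values near 0 that had not passed the test. For EXPA11 in warmed fve-4 it became -0.02 with median-ratio rescaling and -0.01 with quantile normalization. For EXPA1 in warmed fve-4 it became 0.00 and 0.01 without 1 library (-0.18 to 0.01 over all). For LNG2 at 21 °C it ranged from -0.06 to 0.04 (0.02 and 0.03 among them), and for EXPA10 at 27 °C -0.03 with median-ratio rescaling and from -0.07 to 0.08 without 1 library (-0.01 and 0.00 among them). The cause was not tested.

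The labels do not say what a replicate number stands for. Over the genes tested, deviations of same-numbered libraries correlated at -0.14 to 0.19. Of 18 pairs 1 was over 0.1, and 13 of 36 comparisons were best with their own number. EXPA5 was lowest in replicate 1 in each of the 4 groups (26.5, 22.2, 16.6 and 19.7 TPM). Whether same-numbered libraries share an origin was not tested. With a replicate block 4 member calls changed, of EXPA5 in warmed Col (adjusted p = 0.0115), warmed fve-4 (0.0415) and at 27 °C (0.0202) and of EXPA11 in warmed Col (0.0524), and 0 counts over all genes moved by over 1.5 times. Over the alternatives the other alpha-expansins with a higher change in fve-4 numbered 3 to 6 and with a lower one 2 to 4. In warmed fve-4 1 to 3 rose and 2 to 5 fell, and at 21 °C 1 to 3 were higher. EXPA17 is included wherever it was called. Root markers lower in warmed Col numbered 2 to 6, and those higher in fve-4 at 27 °C 3 to 7. Genes lower in fve-4 at 21 °C numbered 1687 and, without fve-4 at 21 °C replicate 1, 1083. With PRE5 the regulators that rose in warmed Col numbered 8 in place of 7, and those with a lower change in fve-4 numbered 9 in place of 8.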
